A study of Mus musculus with 3 samples.

Results

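The DNA replication genes of an in vitro Leydig cell differentiation were followed as 41 genes in a table of single-cell counts that lists 24698 genes. The members were chosen by name, as genes that act when a cell copies its DNA, and all 41 were found in the table. Leydig cells are the steroid-producing cells of the testis interstitium. They were made here from SCA1+/cKIT- cells, which were sorted from testes of adult C57BL/6 mice (8 to 12 weeks old) and plated on Matrigel at 100000 cells per well. Recovery took 18 hours in medium with 10% fetal bovine serum. Expansion in PDGFAA, PDGFBB and FGF2 (10 ng/ml each) with SAG (0.5 uM), an agonist of hedgehog signalling, took 3 days. The differentiation medium then kept these factors and added LiCl2 (5 mM) and DAPT (10 uM), an inhibitor of Notch signalling. By the study's account, day 4 cells came from the expansion medium, and cells of days 7 and 14 had moved on to the differentiation medium. Cells of culture days 4, 7 and 14 were read by Drop-seq, in which a cell is caught in a droplet with a barcoded bead and each captured RNA is counted once as a UMI (unique molecular identifier). There was 1 library per day, so days are compared by values with 95% counting intervals and without a test, and a difference between days cannot be told apart from a difference between libraries. Between day 4 and the later days, it cannot be told apart from the change of medium either. How many mice gave the cells is not given in the sources used here.

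Before S phase, the 6 subunits of the MCM2-7 helicase are loaded on DNA at origins (licensing), with CDC6 and CDT1 as loaders and geminin as the inhibitor of CDT1. Kinases, CDC45, the GINS complex and MCM10 then turn the helicase on (firing), and DNA polymerases copy the strands, held to DNA by the clamp PCNA that the RFC complex loads. Okazaki fragments are trimmed and joined, new DNA is packed into chromatin, and ribonucleotide reductase and thymidylate enzymes supply the nucleotides. Most of these genes are transcribed under E2F factors from late G1 into S phase, whereas Cdc20 (the activator of the anaphase-promoting complex) and Cenpf (a kinetochore protein) are transcribed mainly in G2 and M phase. Cells that carry a Cdc20 or Cenpf UMI are called carriers below. The members lie on 17 chromosomes, with at most 7 on 1 of them (chromosome 5), and all 41 are protein-coding in GENCODE's annotation of GRCm38. One of them is listed under the older name 2810417H13Rik and is Pclaf, the PCNA-associated factor, at chr9:65890237-65903266.

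The letters of the E2F site were more frequent in member promoters than in all promoters, and those of the CHR element were not. RefSeq promoters (GRCm38.p6, 250 bases before to 50 after the start) were at hand for 32 of the 41 members, and those of Gins1, Mcm4, Gins2, Atad2, Tipin, Ccne2, Pole, Rfc2 and Gmnn were not analysed here. Of these 32 genes, 14 (43.8%) held an exact match to TTTCGCGC, TTTGGCGC, TTTCCCGC or TTTGCCGC on either strand, against 2.61% of all 27025 genes with a promoter, or 2.26% of all 32851 promoters. Among the other fixed lists, 14 of 43 further replication genes (32.6%) held such a match but 1 of 27 mitosis genes (3.70%). The CHR letters (TTTGAA or TTCGAA, the element of G2 and M phase genes) were found for 5 of 32 member genes (15.6%), 21 of 27 mitosis genes (77.8%) and 21.7% of all genes. CCAAT was found for 19 of 32 members (59.4%), 22 of 27 mitosis genes (81.5%) and 41.1% of all genes. Shown here are the E2F-bearing promoters of the 4 members with the most UMIs among those that hold a match, to show where these letters stand. Sequences run 5′ to 3′ on the gene's strand and capitals mark the E2F matches, which in Mcm6 include a pair that overlap on opposite strands.
2810417H13Rik, chr9:65890073-65890372, plus strand: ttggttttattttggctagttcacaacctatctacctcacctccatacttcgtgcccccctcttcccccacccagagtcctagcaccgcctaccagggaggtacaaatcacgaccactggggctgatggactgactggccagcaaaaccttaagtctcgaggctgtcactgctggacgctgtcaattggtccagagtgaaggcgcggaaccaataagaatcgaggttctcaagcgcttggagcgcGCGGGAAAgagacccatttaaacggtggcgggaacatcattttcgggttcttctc
Lig1, chr7:13278576-13278875, plus strand: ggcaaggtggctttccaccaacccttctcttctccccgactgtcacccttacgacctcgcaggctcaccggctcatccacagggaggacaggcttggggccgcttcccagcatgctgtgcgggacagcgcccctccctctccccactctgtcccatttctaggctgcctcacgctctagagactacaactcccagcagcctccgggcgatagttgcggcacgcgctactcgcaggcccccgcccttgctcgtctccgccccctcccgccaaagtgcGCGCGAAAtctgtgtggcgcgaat
Mcm6, chr1:128359656-128359955, minus strand: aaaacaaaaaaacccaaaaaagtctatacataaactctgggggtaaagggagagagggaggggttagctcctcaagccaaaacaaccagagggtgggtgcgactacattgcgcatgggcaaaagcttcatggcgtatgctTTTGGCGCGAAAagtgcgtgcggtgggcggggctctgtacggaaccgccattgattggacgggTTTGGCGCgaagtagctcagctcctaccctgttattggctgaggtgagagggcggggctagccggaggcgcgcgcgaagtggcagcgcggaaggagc
Hells, chr19:38930740-38931039, plus strand: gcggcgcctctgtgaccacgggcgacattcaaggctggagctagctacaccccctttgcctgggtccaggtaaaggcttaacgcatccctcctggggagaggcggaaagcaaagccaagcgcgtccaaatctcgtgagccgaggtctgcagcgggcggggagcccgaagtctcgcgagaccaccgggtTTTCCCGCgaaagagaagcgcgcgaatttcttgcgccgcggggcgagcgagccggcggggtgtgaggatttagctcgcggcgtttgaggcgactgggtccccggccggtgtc
The match began 5 bases before the annotated start in 2810417H13Rik, 26 bases after it in Lig1, 62 before it in Hells, and 110, 106 and 47 before it in Mcm6. The other Lig1 promoters held no match. Over the 32 members with a promoter, 20 matches were found, and 12 of them began within 100 bases before the start or after it. Words that overlap on opposite strands, as in Mcm6 and also in Mcm5, were counted as separate matches. The 14 members with the letters and the 18 without them had nearly the same change from day 7 to day 14, with medians of -1.79 and -1.74 on the log2 scale. A match is a description of letters, and no binding was measured.

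The libraries held 2980, 2171 and 973 barcodes on days 4, 7 and 14, with 12677110, 11627440 and 5324400 UMIs in all and medians of 2886.5, 3285 and 3272 UMIs per barcode. No barcode was shared between libraries, but within libraries 2834 of the 6124 barcodes (46.3%) shared their first 11 of 12 letters with another barcode. Most came in complete sets of 4 (618 sets), and barcodes of a set had medians of 1665, 1951 and 2136 UMIs on the 3 days against 5039, 6464 and 7508 for barcodes standing alone. Over the 500 most counted genes, profiles within a set had median correlations of 0.188, 0.202 and 0.273, against about 0 between barcodes of different sets. Only barcodes with at least 1500 UMIs entered, which gave 785, 831 and 476 pairs within sets. Barcodes of a set may therefore not be separate cells, which was not tested further. Sums over a day do not depend on this, whereas every count of cells does. Counts of cells are given for barcodes as deposited. Where stated, they are also given with each set summed into 1 (2027, 1414 and 601 sets or single barcodes). Values given once are for barcodes as deposited unless sets are named, and may differ with sets summed. Leydig transcripts rose with the labelled days, with 5 Leydig enzyme and hormone genes summing to 231, 449 and 7524 CPM (UMIs per 1000000 UMIs of the day) on days 4, 7 and 14. Myofibroblast genes summed to 5045, 4886 and 364 CPM and interstitial progenitor genes (Tcf21, Pdgfra, Ly6a, Nr2f2, Dcn) to 1424, 660 and 1517 CPM. The latter went both ways from day 4 to day 14, with 2 of 5 higher and 3 lower. Endothelial, germ cell, Sertoli and macrophage lists stayed at or below 204 CPM on every day, and Amh was at 0 throughout.

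Replication transcripts were abundant on days 4 and 7 and low on day 14. Together the members gave 16574, 17986 and 2341 UMIs, or 1307, 1547 and 439.7 CPM. Every one of the 41 members was lower on day 14 than on day 7, and 35 of them were lower at least 2-fold by the log2 ratio of CPM + 1. Of all 12656 genes with at least 20 UMIs in the pair of days, 7269 were lower at all and 14.0% at least 2-fold. The median log2 ratio was -1.74 for the members and -0.13 for all these genes. For 40 members the exact interval of the ratio lay below 1, a count that was not made for all genes. Against day 4, 29 members were at least 2-fold lower on day 14 (15.3% of 12712 genes), with a median of -1.43 against -0.05 for all genes. This second ratio shares its day 14 library with the first. Since whole libraries are summed, fewer cells with these transcripts and less transcript per cell cannot be told apart, and the same holds for the shares of cells with a UMI below.

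**Figure D1:**
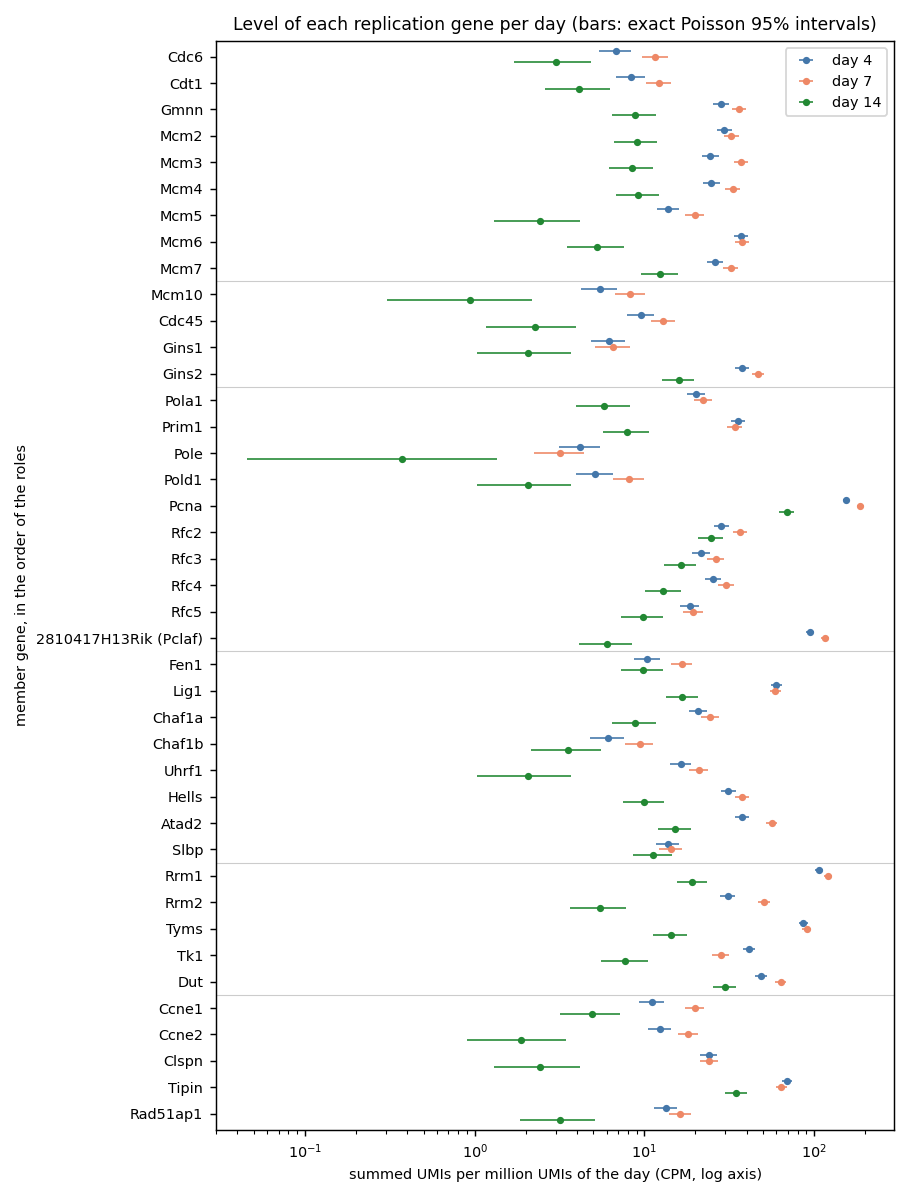
CPM of the 41 members on days 4 (blue), 7 (orange) and 14 (green), on a log axis, ordered by role with lines between roles; bars are exact Poisson 95% intervals, which cover counting error only. All 41 green points lie left of the orange ones, from a 19.4-fold gap in 2810417H13Rik to 1.27-fold in Slbp.

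From day 4 to day 7 the members moved little and mostly upward. Of the 41, 36 had a ratio above 1 and 5 below, and of all 12954 genes with enough UMIs 7776 were above and 5178 below. No member reached 2-fold in either direction (5.01% of these genes did). The median log2 ratio was 0.29 against 0.09 for all genes. The interval of the ratio lay above 1 for 26 members and below 1 for 1, Tk1, a count that was not made for all genes. Ccne1 (cyclin E1, which drives the entry into S phase) had the greatest ratio at 1.80 (1.45 to 2.24), followed by Cdc6 at 1.71 (1.30 to 2.27) and Rrm2 at 1.65 (1.45 to 1.88). Tk1 had the smallest, at 0.679 (0.590 to 0.781), and it codes for thymidine kinase, which salvages thymidine. Of the mitosis list, 22 of 30 genes had a log2 ratio below 0, as had 5178 of all 12954 genes, and the median was -0.17.

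The licensing genes fell as a block after day 7, with 9 of 9 at least 2-fold lower and a median log2 ratio of -1.74. Mcm6 and Mcm5, both ring subunits of the helicase, fell furthest. Mcm6 stood at 37.2 CPM (33.9 to 40.7) on day 4, 37.7 (34.2 to 41.4) on day 7 and 5.26 (3.49 to 7.60) on day 14. Mcm5 stood at 13.8, 19.9 and 2.44 CPM. Their levels on day 14 were 7.16-fold (4.89 to 10.9) and 8.14-fold (4.67 to 15.5) below day 7. Intervals of the ring subunits did not overlap between days 7 and 14. Mcm2 fell from 32.5 to 9.02 CPM, Mcm3 from 37.0 to 8.45 and Mcm4 from 33.1 to 9.2. Mcm7 kept the most, 12.4 CPM of 32.3, a 2.61-fold difference (2.0 to 3.44). Subunits of 1 ring therefore differed in how far they fell, and the intervals of Mcm6 and Mcm7 were apart. The loaders Cdc6 (6.78, 11.6 and 3.01 CPM) and Cdt1 (8.36, 12.2 and 4.13 CPM) were low on all days, and the inhibitor Gmnn (28.4, 36.3 and 8.83 CPM) fell 4.11-fold (3.04 to 5.68). Cdt1 lies under a same-strand readthrough transcript, so its counts may include reads of that one.

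The firing factors behaved likewise, with 4 of 4 at least 2-fold lower on day 14 and a median log2 ratio of -1.79. Gins2, a GINS subunit, was the most counted, at 37.6, 46.8 and 16.0 CPM on days 4, 7 and 14. Its partner Gins1 gave 6.15, 6.54 and 2.07 CPM, and Cdc45, which joins the helicase at firing, gave 9.54, 12.9 and 2.25. Mcm10 rested on 5 UMIs on day 14 (0.939 CPM, 0.305 to 2.19) against 96 on day 7 (8.26 CPM), so that its 8.79-fold difference has an interval from 3.64 to 27.7. Levels per gene are counts at the 3′ end and are compared within a gene.

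Polymerases, clamp and clamp loader split. Pclaf (2810417H13Rik), which binds PCNA at forks, had the steepest fall of all members: 95.1 CPM (89.8 to 101) on day 4, 117 (111 to 123) on day 7 and 6.01 (4.11 to 8.48) on day 14. That is 19.4-fold (13.7 to 28.5) from day 7. Its partner Pcna, the clamp, remained the most counted member, at 154, 188 and 69.1 CPM, 2.72-fold (2.43 to 3.04) lower on day 14 than on day 7. The pseudogene Pcna-ps2 had 12, 12 and 6 UMIs, and reads that map to both copies were not measured. Nearest to level were loader subunits. Rfc2 gave 28.5, 36.8 and 24.6 CPM and Rfc3 21.5, 26.3 and 16.3, 1.5-fold (1.23 to 1.83) and 1.61-fold (1.27 to 2.07) lower on day 14 than on day 7. Rfc5 (19.4 to 9.77 CPM) lay at 1.99-fold and Rfc4 (30.3 to 13 CPM) at 2.34-fold. Of the primase and polymerase subunits, Prim1 fell from 34.1 to 7.89 CPM and Pola1 from 22.3 to 5.82. Pold1, of the lagging-strand polymerase, fell from 8.08 to 2.07 CPM. Pole, of the leading-strand polymerase, was counted 53, 37 and 2 times, and its day 14 to day 7 ratio was 0.118 with an interval from 0.0138 to 0.458. In all, 7 of the 10 genes of this role were at least 2-fold lower, with a median of -1.50.

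Okazaki fragment and chromatin genes ranged widely. Slbp, which binds the stem-loop of histone mRNA, gave 13.7, 14.3 and 11.3 CPM on the 3 days, and its day 14 to day 7 ratio of 0.789 (0.577 to 1.07) was the only one whose interval included 1. The flap nuclease Fen1 gave 10.4, 16.6 and 9.77 CPM on the 3 days, and its day 14 to day 4 ratio was 0.938 (0.667 to 1.30). DNA ligase 1 (Lig1) did not share this, at 60.0, 59.2 and 16.7 CPM, a 3.54-fold difference (2.84 to 4.47) between days 7 and 14. Uhrf1, which keeps DNA methylation on the new strand, fell 10.2-fold (5.58 to 20.6), from 21.0 to 2.07 CPM. Hells, a chromatin remodeller, fell from 37.5 to 9.95 CPM and Atad2, a bromodomain ATPase, from 56.3 to 15.2. The CAF-1 subunits Chaf1a and Chaf1b, which place histones on new DNA, fell from 24.4 to 8.83 and from 9.37 to 3.57 CPM. Of these 8 genes 6 were at least 2-fold lower than on day 7, with a median of -1.57.

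Nucleotide supply fell the most as a role, 5 of 5 genes with a median log2 ratio of -2.59 from day 7 to day 14. The subunits of ribonucleotide reductase, Rrm1 and Rrm2, gave 107, 121 and 19.2 CPM and 30.9, 50.9 and 5.45 CPM. Their falls were 6.29-fold (5.15 to 7.77) and 9.35-fold (6.44 to 14.1). Tyms, thymidylate synthase, gave 86.5, 90.8 and 14.3 CPM, 6.36-fold (5.04 to 8.14) lower. Tk1 was the only member of the role that was already lower on day 7, at 41.4, 28.1 and 7.70 CPM. Dut, which removes dUTP, retained the most, at 48.9, 63.5 and 29.7 CPM, 2.14-fold (1.80 to 2.56).

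Among cyclin E, checkpoint and repair genes, 4 of 5 were at least 2-fold lower, with a median of -2.04. Clspn, a mediator of the replication checkpoint, gave 23.9, 24.0 and 2.44 CPM, and Ccne2 gave 12.3, 18.1 and 1.88. These were 9.83-fold (5.65 to 18.7) and 9.62-fold (5.13 to 20.3) below day 7. Ccne1 fell from 19.9 to 4.88 CPM and Rad51ap1, a recombination factor, from 16.3 to 3.19. Tipin, which protects stalled forks with Timeless, was an exception at 68.9, 64.2 and 34.7 CPM, 1.85-fold (1.57 to 2.18). Below 2-fold from day 7 to day 14 thus stood Slbp, Rfc2, Rfc3, Fen1, Tipin and Rfc5.

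Beside the members stands a list of 51 other replication genes. Of 49 with enough UMIs, 29 were at least 2-fold lower on day 14 than on day 7, with a median log2 ratio of -1.14. Its 5 most counted genes were Nasp (-1.56), Pole4 (-1.05), Rpa3 (-0.56), Rfc1 (-0.49) and Pole3 (-0.38). Of the mitosis genes 30 of 30 were at least 2-fold lower, with a median of -2.27, and their 5 most counted were Prc1 (-3.17), Tpx2 (-2.89), Anln (-2.88), Top2a (-2.45) and Mki67 (-2.26).

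A member UMI was seen in a smaller share of cells on day 14. Each barcode with at least 1500 UMIs was thinned at random to 1500 UMIs so that shares are compared at 1 depth, which kept 2227, 1742 and 794 barcodes. The median share of cells with a UMI, over the members, was 3.10%, 3.96% and 1.1% on days 4, 7 and 14 (3.38%, 3.34% and 0.907% with sets summed). Pcna led at 16.5%, 19.6% and 9.19% of cells, followed on day 7 by Rrm1 (14.8%), Tyms (13.5%) and 2810417H13Rik (11.5%). On day 14 the latter 3 were found in 2.27%, 2.39% and 0.756% of cells, and Dut (5.79%) and Tipin (5.67%) stood behind Pcna. Without thinning the medians were 7.32%, 10.8% and 3.49%.

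Cells with at least 3 different members were more frequent on days 4 and 7 than on day 14. At least 3 different members were found in 18.1% of cells on day 4 (16.5 to 19.8), 24.1% on day 7 (22.1 to 26.2) and 3.78% on day 14 (2.56 to 5.35). With sets summed these shares were 18.5%, 21.9% and 3.99%, and without thinning 37.9%, 48.3% and 24.5%. Such cells held 66.4%, 75.2% and 27.3% of member UMIs on the 3 days. They were picked by their members, so a large part is given by the rule. The share of such cells that independently spread members would give was not computed. These shares alone therefore do not show that members occur together. The most members in 1 thinned cell were 15, 18 and 9, and 39.4%, 36.1% and 58.3% of cells had none. The line between 2 and 3 members cuts a continuous range, since 120, 96 and 17 cells had exactly 3 and 311, 232 and 59 had 2.

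**Figure D2:**
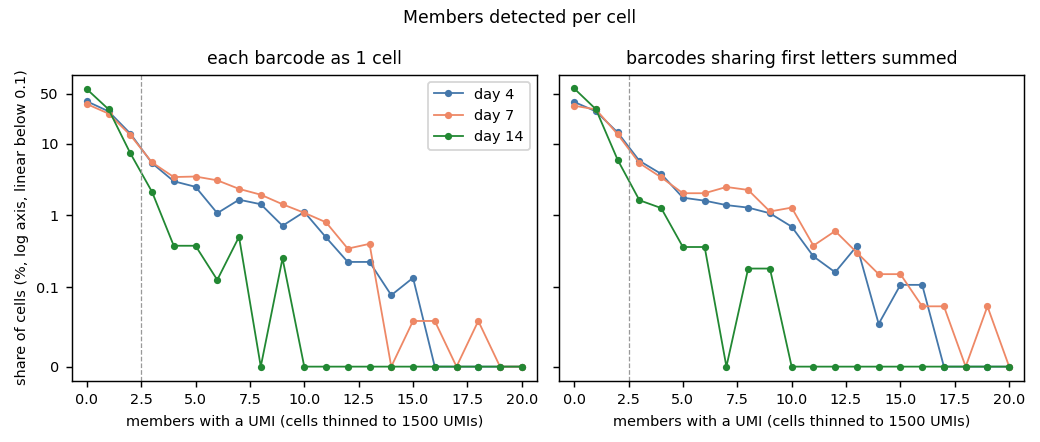
Share of cells (log axis, linear below 0.1%) by the number of members with a UMI after thinning to 1500 UMIs, for barcodes as deposited (left) and with sets of barcodes summed (right); the dashed line marks 3 members. Curves of days 4 and 7 reach 15 and 18 members in the left panel while that of day 14 ends at 9.

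For every member the share of cells with a UMI was higher in cells that held at least 3 other members than in cells with none on days 4 and 7, and for 32 of 41 on day 14. The median share was 9.92% against 0.903% on day 4 and 11.4% against 0.946% on day 7, and with sets summed it was 10.0% against 0.829% and 11.5% against 1.10%. On day 14 it was 6.67% against 0.644%, where only 20 to 30 cells held at least 3 other members, depending on the member. The intervals were apart for 40 members on day 4, 38 on day 7 and 10 on day 14. Among genes that are no members and were seen in at least 20 of these cells, 5.09% of 7813 on day 4 and 5.91% of 7490 on day 7 were higher with intervals apart, and 49.8% and 50.4% were higher at all. On day 14, 1.02% of 4786 such genes had them apart and 47.9% were higher at all. On day 7, Tk1 was in 16.7% of cells with at least 3 other members and in 0.159% of those with none. Uhrf1 was in 10.6% and 0.317%, and Rrm2 in 23.1% and 0.946%. At the other end stood Slbp (3.11% and 1.88%), Tyms (24.4% and 9.51%) and Rfc5 (5.98% and 2.03%), which were also found outside such cells.

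Members were also counted outside such cells. Among cells with fewer than 3 other members, 25 members had at least 20 UMIs over days 7 and 14, 7 of them were at least 2-fold lower on day 14, and the median log2 ratio was -0.64 (with sets summed, 7 of 22 and -0.80). Of all 9278 genes with enough UMIs in cells with fewer than 3 members, 13.8% were that much lower, and their median was -0.16 (with sets summed, 14.4% of 8596 and -0.15). Those 7 were 2810417H13Rik, Mcm6, Tyms, Rrm1, Ccne1, Mcm3 and Pola1, and the intervals of Mcm3 and Pola1 included 1. Tyms stood at 74.0 CPM on day 7 and 13.9 on day 14 in these cells, a ratio of 0.188 (0.105 to 0.316), and Rrm1 at 71.5 and 13.9. Dut (35.8 and 38.2 CPM), Tipin (42.4 and 40.6) and Rfc2 (23.6 and 23.5) had ratios whose intervals included 1. With sets summed only that of Rfc2 did, since Dut stood at 39.0 and 20.1 CPM (ratio 0.516, 0.278 to 0.907) and Tipin at 39.1 and 22.6 (0.577, 0.321 to 0.990).

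Member transcripts were concentrated in carriers of Cdc20 or Cenpf, but about as many cells with at least 3 members had neither mark as had one on days 4 and 7. Carriers were 493 of 2980 barcodes on day 4 (16.5%), 358 of 2171 on day 7 (16.5%) and 43 of 973 on day 14 (4.42%), or 19.8%, 19.9% and 6.66% with sets summed. They held 23.4%, 22.4% and 7.24% of all UMIs and 52.5%, 49.1% and 18.2% of member UMIs (56.1%, 53.6% and 24.4% with sets summed). The members summed to 2931 CPM in carriers and 811 in other cells on day 4, to 3391 and 1015 on day 7, and to 1105 and 388 on day 14. Carriers were deeper, with medians of 4597, 5582 and 7681 UMIs against 2650, 2932 and 3131 for the others, and values after thinning are given below.

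On day 4, 38 of 41 members were at least 2-fold higher in carriers (4.11% of 11693 genes were), with a median log2 ratio of 1.86. On day 7 there were 39 of 41 (3.86% of 11743 genes) with a median of 1.58. On day 14, when 29 members had at least 20 UMIs, there were 20 (5.42% of 10374 genes) with a median of 1.47. For all genes the medians were 0.01, -0.01 and 0.00. All members tested were higher in carriers on each day, and of all genes 5938 of 11693, 5656 of 11743 and 5226 of 10374 were. Every member's interval lay above 1 on days 4 and 7, and 23 of 29 did on day 14. Intervals were not counted for all genes. With sets summed the counts were 39, 40 and 24 and the medians 1.94, 1.61 and 1.68. Of all genes, 475 of 11693, 463 of 11743 and 530 of 10374 were then at least 2-fold higher. When cells were thinned to 1500 UMIs before carriers were called, 22 of 37, 25 of 39 and 4 of 6 members with enough UMIs were at least 2-fold higher, with medians of 1.28, 1.21 and 1.12. The medians kept their direction and were smaller, over fewer members. After this thinning no such count was made for all genes, so no background share stands beside these counts. Cells that lost their only Cdc20 or Cenpf UMI by thinning counted among the others, so the part of depth was not measured.

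**Figure D3:**
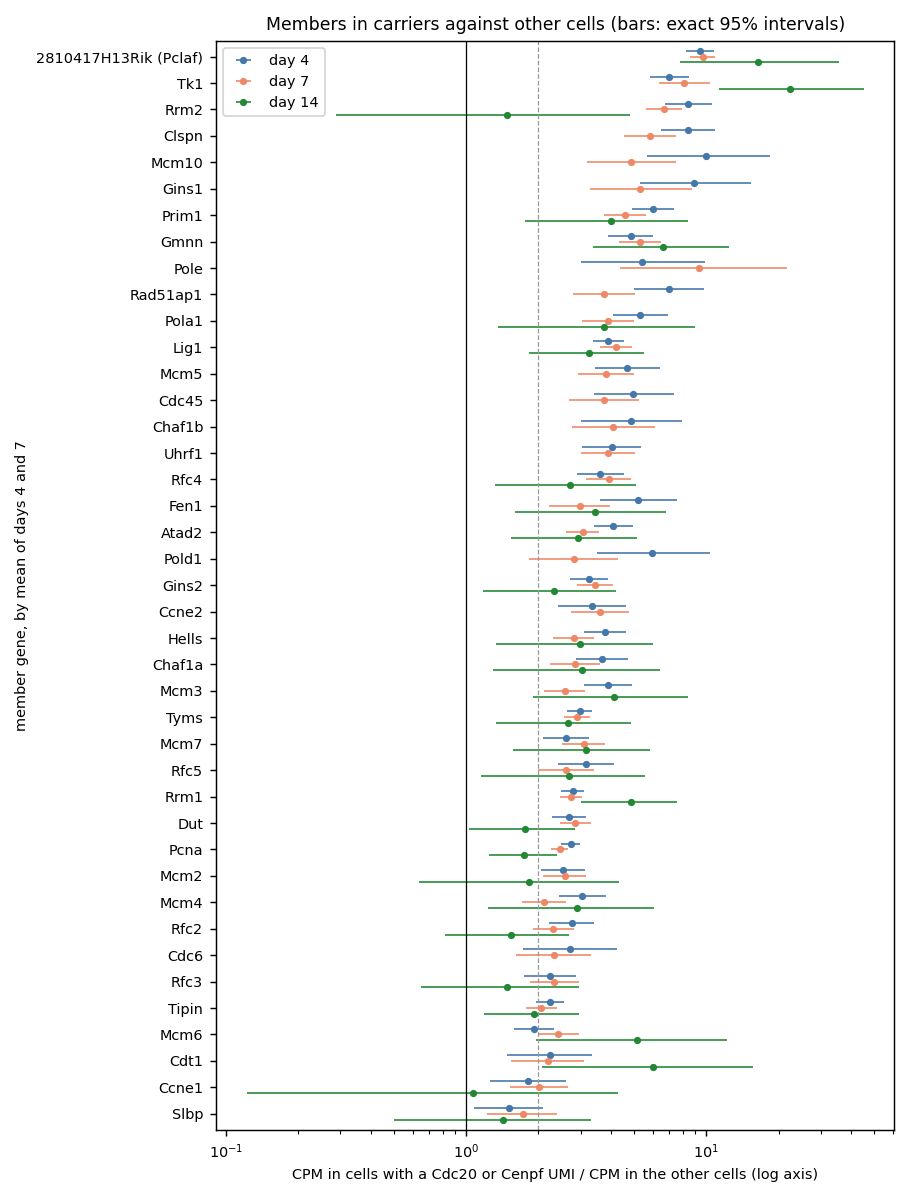
Ratio of each member's CPM in cells with a Cdc20 or Cenpf UMI to its CPM in the other cells (log axis) on days 4 (blue), 7 (orange) and 14 (green, 29 members with at least 20 UMIs), ordered by the mean of days 4 and 7; bars are exact 95% intervals, the solid line is 1 and the dashed line 2. The points of 2810417H13Rik at the top lie above 9 on days 4 and 7, those of Slbp at the bottom below 2.

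The members did not overlap equally with the carriers. Pclaf (2810417H13Rik) stood at 301 CPM in carriers and 32.0 in other cells on day 4, and at 383 and 39.8 on day 7, ratios of 9.39 (8.24 to 10.7) and 9.64 (8.53 to 10.9). Tk1 had ratios of 7.00 (5.81 to 8.47) and 8.10 (6.37 to 10.4), Rrm2 of 8.38 and 6.64, and Clspn of 8.38 and 5.83. Lowest were Slbp at 1.51 (1.08 to 2.10) and 1.72 (1.22 to 2.39), and Ccne1 at 1.81 (1.26 to 2.59) and 2.02 (1.53 to 2.65). Low on both days were also Cdt1 (2.23 and 2.19), Mcm6 (1.92 and 2.42) and Tipin (2.23 and 2.06). Nucleotide enzymes were spread over the range, since Rrm1 (2.78 and 2.74) and Tyms (2.97 and 2.90) lay below Rrm2 and Tk1. The order was alike in the libraries of days 4 and 7, with Pearson's r of 0.86 and Spearman's rho of 0.86 over 41 genes, which are not independent replicates, and 8 of the 10 highest were shared. In both libraries the carriers were the deeper cells. By role, the median log2 ratio on day 4 ran from 1.34 for licensing to 2.39 for firing, and on day 7 from 1.33 for licensing to 1.92 for firing. On day 14 Tk1 (26 UMIs in carriers, 15 in the others) and 2810417H13Rik (18 and 14) had ratios of 22.2 (11.3 to 45.1) and 16.5 (7.74 to 35.8). After thinning, 2810417H13Rik was in 0 of 41 carriers of day 14 and in 6 of 753 other cells, and with sets summed in 2 of 40 and 1 of 511.

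In shares of thinned cells, 2810417H13Rik was in 31.5% of carriers and 4.22% of other cells on day 4, and in 38.9% and 5.29% on day 7. Pcna was in 25.7% and 14.3% on day 4 and in 35.5% and 15.9% on day 7. Mcm6 was in 7.01% (4.78 to 9.86) and 4.72% (3.79 to 5.81) on day 4, intervals that overlap, and Slbp in 2.80% and 1.89%. On day 14 only 41 carriers passed thinning, so a count of 0 allows a share of up to 7.32% by the rule of 3 counts, and the exact interval ends at 8.60%. Only for Tk1, in 3 of 41 carriers and 3 of 753 other cells, were the intervals apart.

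Of cells with at least 3 members, 193 of 403 on day 4 (47.9%, 42.9 to 52.9), 210 of 420 on day 7 (50%, 45.1 to 54.9) and 23 of 30 on day 14 (76.7%, 57.7 to 90.1) had no Cdc20 or Cenpf UMI in the whole cell. With sets summed the shares were 43.5%, 42.2% and 63.6%. None of the 30 mitosis genes had a UMI in 21.6%, 16.7% and 63.3% of the thinned member-rich cells. Seen from the carriers, 49.1% on day 4 and 64.8% on day 7 had at least 3 members, against 10.7% and 14.8% of other cells, and on day 14 these shares were 17.1% (7 of 41) and 3.05% (23 of 753). A missing UMI in a cell thinned to 1500 does not show that the transcript was absent.

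Cells were also split by at least 3 members and at least 3 UMIs of the mitosis list. Members without mitosis made up 7.18% of cells on day 4 (6.15 to 8.34), 8.84% on day 7 (7.55 to 10.3) and 3.02% on day 14 (1.95 to 4.46). Both were found in 10.9% (9.65 to 12.3), 15.3% (13.6 to 17.0) and 0.756% (0.278 to 1.64). Mitosis without members made up 9.12% (7.95 to 10.4), 4.42% (3.50 to 5.49) and 1.39% (0.694 to 2.47). Intervals of days 7 and 14 were apart for all 3 of these shares. Between days 4 and 7 the mitosis-only share was lower and the share with both was higher, each with intervals apart. Sets summed gave 7.68%, 7.43% and 3.09% for members only, 10.8%, 14.5% and 0.907% for both, and 9.24%, 5.00% and 1.45% for mitosis only.

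**Figure D4:**
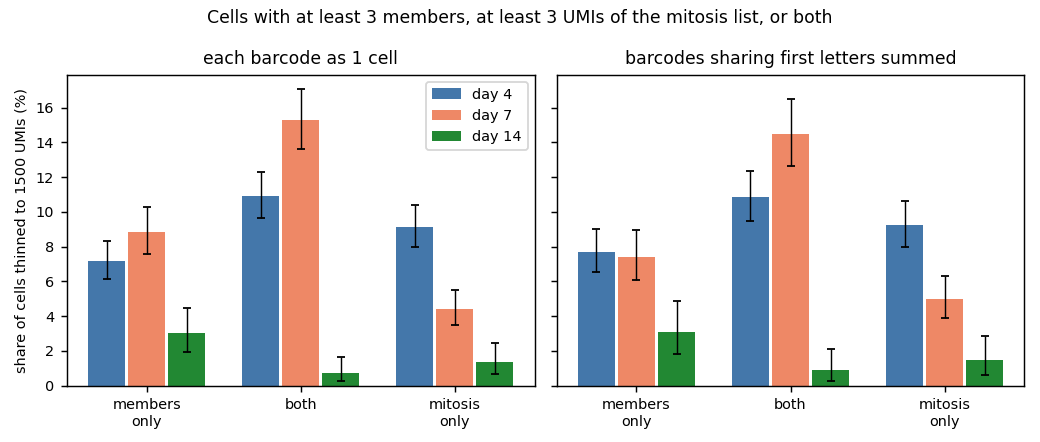
Share of thinned cells with at least 3 members and fewer than 3 mitosis UMIs (members only), with both, or with at least 3 mitosis UMIs and fewer than 3 members (mitosis only) on days 4, 7 and 14; bars are shares of all thinned cells, error bars exact binomial 95% intervals, left for barcodes as deposited and right with sets of barcodes summed. The share with both is 10.9%, 15.3% and 0.756% in the left panel.

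Within member-rich cells, shares of single members in carriers and in cells without the marks went both ways. On day 7, 23 of 41 members had a higher share in carriers. Intervals were apart for 3 that were higher in carriers and for 2 that were lower. These counts were not made for all genes, so no background share stands beside them. Overlapping intervals in so few cells do not show that shares were alike. Pclaf was in 50.7% of the carriers and 28.8% of the others, and Rrm1 in 40.4% and 26%. The helicase subunit Mcm3 was in 9.13% and 19.5%, and Hells in 8.10% and 18.9%. Tk1 was in 22.5% and 11%. With sets summed, which leaves fewer cells, no member had intervals apart. The shares were then 46.5% and 30.5% for Pclaf, 39.1% and 24.1% for Rrm1, 15.2% and 6.72% for Tk1, 12.1% and 23.5% for Hells, and 15.2% and 18.2% for Mcm3. On day 4, before sets were summed, 1 member had them apart, Pclaf, with 45.5% and 22.7%.

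Member UMIs were fewer in day 7 cells that had Leydig enzyme transcripts. On that day, 90 thinned cells had at least 3 UMIs of the 5 Leydig genes and 1220 had none, and members summed to 689 and 1717 CPM, a ratio of 0.401 (0.323 to 0.493). Of 38 members with at least 20 UMIs, 36 were lower in the former, with a median ratio of 0.382, and 25 had a ratio of at most 0.5. Of all 8160 genes with enough UMIs 15.8% had such a ratio, 55.9% were lower, and the median was 0.935. Rfc5 and Slbp had ratios above 1 with intervals that included 1. On day 14, 484 cells had such UMIs and 136 had none, with 380.2 and 534 CPM and a ratio of 0.712 (0.568 to 0.897). Only 4 members had at least 20 UMIs there, with ratios of 1.02 for Pcna, 1.19 for Rfc2, 0.913 for Dut and 0.874 for Tipin, and each interval included 1. None of the 4 had a ratio of at most 0.5, as 7.06% of 5578 genes did. With sets summed the ratios of all members together were 0.328 and 0.673. On day 14 only Pcna then had at least 20 UMIs. Its ratio was 0.411 (0.211 to 0.813), and 7.56% of 4498 genes had a ratio of at most 0.5. Without thinning, however, the day 14 ratio of all members together was 1.41 and that of day 7 was 0.55. The direction on day 14 thus depends on how depth is handled. On day 14 at least 3 members were in 11 of 484 cells with Leydig UMIs (2.27%, 1.14 to 4.03) and in 10 of 136 cells without (7.35%, 3.58 to 13.1).

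The 10 sets or single barcodes with the most member UMIs held 8.19%, 8.32% and 23.9% of them on days 4, 7 and 14, and 1.46%, 1.88% and 4.28% of all UMIs. These 10 were taken from 2027, 1414 and 601 sets or single barcodes. The richest of them, a set of 4 barcodes on each day, held 1.37%, 1.07% and 6.32% of member UMIs, which was 148 of 2341 on day 14. As a share of sets, 6.76%, 7.92% and 12.8% of them held 50% of the member UMIs, so by this measure member UMIs were not more concentrated on day 14. Macrophage genes moved with the carriers on day 14: the list of 7 summed to 2526 CPM in carriers and 22.9 in others (2180 and 22.8 with sets summed), with Lyz2 leading and C1qb at 0 on day 14. Of 1087 such UMIs on day 14, 971 were in 1 barcode of 24077 UMIs that also held 55 member UMIs and 205 of the 1888 mitosis UMIs. Leaving out the 3 barcodes with at least 10 macrophage UMIs, 20 of 28 members were at least 2-fold higher in day 14 carriers with a median of 1.28, cells with at least 3 members were 3.28%, and the 35 members lower on day 14 than on day 7 stayed 35 with a median of -1.76. Against day 4 the number became 31. Without these barcodes no such numbers were counted for all genes. On day 4 germ cell genes stood at 87.8 CPM, led by Prm1 and Tnp1, with 17.3 CPM in member-rich and 112 in member-poor cells, or 57.8 and 97.9 with sets summed. The mitochondrial share of UMIs was 1.37%, 1.46% and 2.64% on the 3 days, and its part in the fall was not tested.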

How the data were processed

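Per the labels and the study's methods, the authors aligned Drop-seq reads to GRCm38 with STAR and deposited raw UMI counts per gene and barcode, without normalization. They kept barcodes with 500 or more genes and no more than 10% of mitochondrial UMIs in a merged table, of which 6124 columns are used here and equal the daily tables entry by entry; 495 further columns have no sample here and were not used. Use of strand in counting is not given in the sources used here.

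Counts were summed per day and scaled to CPM with exact Poisson intervals; shares have exact Clopper-Pearson intervals and ratios exact binomial ones, all at 95%, and they cover counting error only. Ratios were called at 2-fold on log2(CPM + 1) among genes with at least 20 UMIs; the text gives folds from CPM without the pseudocount. Thinning used 1500 UMIs. Scrublet scores (scanpy 1.11.5) were used only to leave out the 6% highest, and no count of doublets is given. TMM factors came from edgeR 4.0.16. Alternatives covered cell filters, scaling, thinning and pseudocounts. Text names all 41 members and, of the further replication and mitosis lists, the 5 genes with the most UMIs. Members and lists were chosen with earlier results of these data known. A planned search of member proteins for a PCNA-binding motif was not made here.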

Additional observations from a re-analysis of the deposited data

Results flagged for a closer look

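Member transcripts were also present outside the barcodes used above. The study kept barcodes with 500 or more genes and no more than 10% of mitochondrial UMIs. This leaves out 320, 229 and 327 barcodes of days 4, 7 and 14, and in these the members summed to 996 CPM (847 to 1162), 902 CPM (740.3 to 1089.6) and 331 CPM (238 to 449). A count of 0 would have allowed up to 18.7, 25.1 and 24.2 CPM, so a signal was present in barcodes that the comparisons of the report leave out. Adding these barcodes changed the median log2 ratios between days little, to 0.30, -1.71 and -1.43. Of the summed levels in these barcodes that of day 14 was the lowest. These barcodes had 3.72%, 7.30% and 8.44% mitochondrial UMIs, and whether they are cells was not tested.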

How the results depend on the processing

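No paired analysis was possible because each day has 1 library and the labels carry no replicate numbers. Scaling, cell filters, minimum UMIs and pseudocounts left the direction of all 3 median ratios between days in place: 0.21 to 0.46 for day 7 against day 4, -1.90 to -1.33 for day 14 against day 7 and -1.53 to -1.07 for day 14 against day 4. A pseudocount of 5 CPM gave the ends at -1.33 and -1.07. From day 4 to day 7, 2 members passed 2-fold with equal weight per cell (Cdc6, Rrm2) and 2 after thinning (Mcm10, Chaf1b). In carriers the median log2 ratio on day 4 was 1.51 with Cenpf alone, 1.28 after thinning carriers and members (22 members at least 2-fold higher), 1.49 with equal weight and 1.52 with a pseudocount of 5 CPM. On day 7 it was 1.21 after thinning (25 members) and 1.35 with equal weight, and on day 14 thinning left 4 members. These counts after thinning were not made for all genes. After that thinning the sign turned for Ccne2 (-0.58) on day 4, for Cdc6 (-1.45), Mcm10 (-0.29) and Ccne2 (-0.34) on day 7 and for Tyms (-4.18) on day 14; without the deepest cells it turned on day 14 for Chaf1a (-0.42) and Tyms (-1.25). The cause was not tested. Shares of cells followed the depth: the median member share was 7.32%, 10.8% and 3.49% unthinned on days 4, 7 and 14, 2.15% and 2.30% on days 4 and 7 at 1000 UMIs, and 6.19%, 8.01% and 2.29% at 3000. Cells with at least 3 members were 37.9%, 48.3% and 24.5% unthinned, 12.6%, 17.0% and 1.53% at 1000 UMIs, and 33.8%, 39.6% and 10.9% at 3000. Summing sets of barcodes, an alternative chosen after the data were seen like the removal of macrophage barcodes, gave 21.9% on day 7. Member-rich cells without the marks were 59.5% and 62.0% on days 4 and 7 at 2 members, 41.7% on day 4 at 5 members, 56.5% on day 7 at 3000 UMIs and 42.2% on day 7 with sets summed. The Leydig cell ratio without thinning was 0.55 on day 7 and turned to 1.41 on day 14. With the inner 6 letters of the E2F words 78.1% of member genes held a match, against 27.4% of all genes. Depth limits day 14, where 12 members had under 20 UMIs.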
